A study of Homo sapiens with 6 samples.

Results

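Genes of the BCL2 family that decide whether a cell keeps or loses its mitochondrial outer membrane were examined after silencing of BARD1 in SKOV3ip1, a derivative of the human ovarian adenocarcinoma cell line SKOV3. The members were the 10 genes BCL2A1, BCL2L1, MCL1, BBC3, PMAIP1, BCL2L11, HRK, BAX, BAK1 and BID, chosen by gene name from the 58735 genes of the count table, and each name was found in 1 row. Cultures of the 2 groups received 2 µg of BARD1 siRNA or 2 µg of control siRNA, both with 6 µL of a cationic lipid reagent, and were collected after 48 h. Each group held 3 libraries of poly(A)-captured RNA, numbered as biological replicates, and all 6 carry the genotype label WT. The labels name the material as cells in the titles and as tumors in the tissue field, while the protocols describe plated cells. No source used here gives the siRNA sequences or says whether replicates were transfected on separate days, so p-values reflect only how far these cultures differed.

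The BCL2 family works through binding between its own members. Pro-survival proteins, here BCL2A1 (BFL-1), BCL2L1 (BCL-XL) and MCL1, hold the effectors BAX and BAK1 in check. BH3-only proteins, here BBC3 (PUMA), PMAIP1 (NOXA), BCL2L11 (BIM), HRK and BID, bind the pro-survival proteins or the effectors, and freed effectors open the outer membrane and release cytochrome c. Ovarian carcinoma cells are known to lean on BCL-XL and MCL1 for survival. NOXA is known to bind MCL1 and BFL-1, HRK to bind BCL-XL, and PUMA and BIM to bind all pro-survival proteins.

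BARD1 silencing was checked first. BARD1 had 5.91, 6.52 and 9.71 CPM (counts scaled to the size of each library) in BARD1 siRNA libraries, against 45.8, 37.8 and 49.2 CPM in control siRNA libraries. This was 5.98-fold lower (log2 fold change −2.58, SE 0.14, edgeR quasi-likelihood test, Benjamini-Hochberg adjusted p = 1.21e-15). The libraries held 16661374 to 17743404 gene counts with BARD1 siRNA and 16621108 to 17704645 with control siRNA, so that 1 CPM stood for 16.2 to 18 reads. The 11 epithelial and ovarian markers summed to 4410 to 4520 CPM in BARD1 siRNA and 4310 to 4700 CPM in control siRNA libraries, mostly through ERBB2, KRT8 and PAX8. Among them CDH1, WT1 and MUC16 were near 0, at 17, 20 and 13 counts over the BARD1 siRNA libraries and 38, 25 and 12 over the control siRNA libraries. KRT7, KRT19, EPCAM and ERBB2 were called lower with BARD1 siRNA (log2 fold changes −0.98, −0.60, −0.24 and −0.14) and PAX8 and KRT18 higher (0.75 and 0.40), and their part in the results was not tested. Markers of blood cells, in which BCL2A1 is best known, summed to 0.287 to 1.23 CPM in BARD1 siRNA and 1.05 to 1.76 CPM in control siRNA libraries. The blood cell markers PTPRC, CD3E, MS4A1, LYZ and HBB, 5 of the 9, were at 0 counts in every library. Endothelial markers summed to 0.80 to 1.30 CPM with BARD1 siRNA and 0.646 to 1.02 CPM with control siRNA, and fibroblast markers to 8.06 to 9.54 CPM with BARD1 siRNA and 6.43 to 8.31 CPM with control siRNA. Counts are per gene, so splice forms of opposite action, known for BCL2L1 and MCL1, were not told apart.

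Promoters of the 3 members with the largest changes are shown because BCL2A1, HRK and BBC3 rose together from low levels or none. RefSeq windows, which run from 250 bases before a start site to 50 bases after it, were matched by symbol for 9 of the 10 members. Patterns were searched on both strands: a kappaB-like pattern by name, the C/EBP-ATF composite core TGATGNAA, the AP-1 core TGACTCA or TGAGTCA, and the CRE palindrome TGACGTCA. Capitals mark the matches.

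BCL2A1 promoter, GRCh38.p14 chr15:79971147-79971446, minus strand: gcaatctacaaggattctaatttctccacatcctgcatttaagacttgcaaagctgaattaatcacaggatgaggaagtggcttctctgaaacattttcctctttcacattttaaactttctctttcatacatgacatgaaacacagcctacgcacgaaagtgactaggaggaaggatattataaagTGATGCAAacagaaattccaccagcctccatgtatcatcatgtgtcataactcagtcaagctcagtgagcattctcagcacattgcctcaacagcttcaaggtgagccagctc

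HRK promoter, GRCh38.p14 chr12:116881392-116881691, minus strand: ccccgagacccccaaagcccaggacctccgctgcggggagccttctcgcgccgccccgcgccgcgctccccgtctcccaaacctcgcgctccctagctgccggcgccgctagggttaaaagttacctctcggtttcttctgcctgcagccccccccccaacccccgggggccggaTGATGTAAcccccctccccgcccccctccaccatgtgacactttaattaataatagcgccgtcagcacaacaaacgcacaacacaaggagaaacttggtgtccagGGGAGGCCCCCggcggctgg

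BBC3 promoter, GRCh38.p14 chr19:47232618-47232917, minus strand: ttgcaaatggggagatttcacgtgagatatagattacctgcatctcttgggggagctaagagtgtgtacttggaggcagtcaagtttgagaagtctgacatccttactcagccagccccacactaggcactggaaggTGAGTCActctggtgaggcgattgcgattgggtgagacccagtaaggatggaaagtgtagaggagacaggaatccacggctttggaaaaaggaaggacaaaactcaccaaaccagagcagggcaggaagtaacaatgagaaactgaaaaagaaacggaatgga

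The windows of BCL2A1 and HRK each held the composite core, TGATGCAA at base −63 of BCL2A1 and TGATGTAA at base −75 of HRK, counted from the start site. That core was found in 3.62% of all 34943 RefSeq windows. The AP-1 core was found at base −113 of BBC3 and in 4.96% of all windows. HRK also held overlapping kappaB-like matches, one on each strand, at bases 31 and 32 after its start site, and 11.3% of all windows held such a match. No CRE palindrome was found in these windows of the members, and 1.84% of all windows held one. The windows of BCL2L1, PMAIP1, BCL2L11, BAX, BAK1 and BID held no match of any of these patterns. A match describes these letters alone and is no evidence of binding.

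Of the 10 members 9 were higher with BARD1 siRNA and 0 were lower at an adjusted p of 0.05. The remaining member, BCL2L11, did not pass. The background is broad, since 42.3% of the 15271 tested genes were called, 22.0% as higher and 20.3% as lower. The members were chosen with earlier results of these data known, so 9 of 10 beside this background is a description and no test. At an unadjusted p under 0.05 the number of lower members was also 0, both in edgeR and in DESeq2. BCL2A1 and HRK reached the filter on low counts, 0.579 CPM in 3 libraries, only through the BARD1 siRNA group and therefore had to differ. Among the 8 members that reached it in both groups, 7 were called higher. In CPM, all 3 BARD1 siRNA libraries lay above all 3 control siRNA libraries for the same 9 members, and 25.8% of tested genes showed this, or 50.4% in either direction. BCL2A1 and HRK are among the 9 and had to show it. For BAX it depended on the scaling, since its groups overlapped in TPM (counts per gene length, described below). Median log2 fold changes were 0.86 for the 10 members, 0.58 without BCL2A1 and HRK, and −0.007 for all tested genes. In bulk RNA, more cells that express a gene and more of its RNA per cell cannot be told apart.

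**Figure D1:**
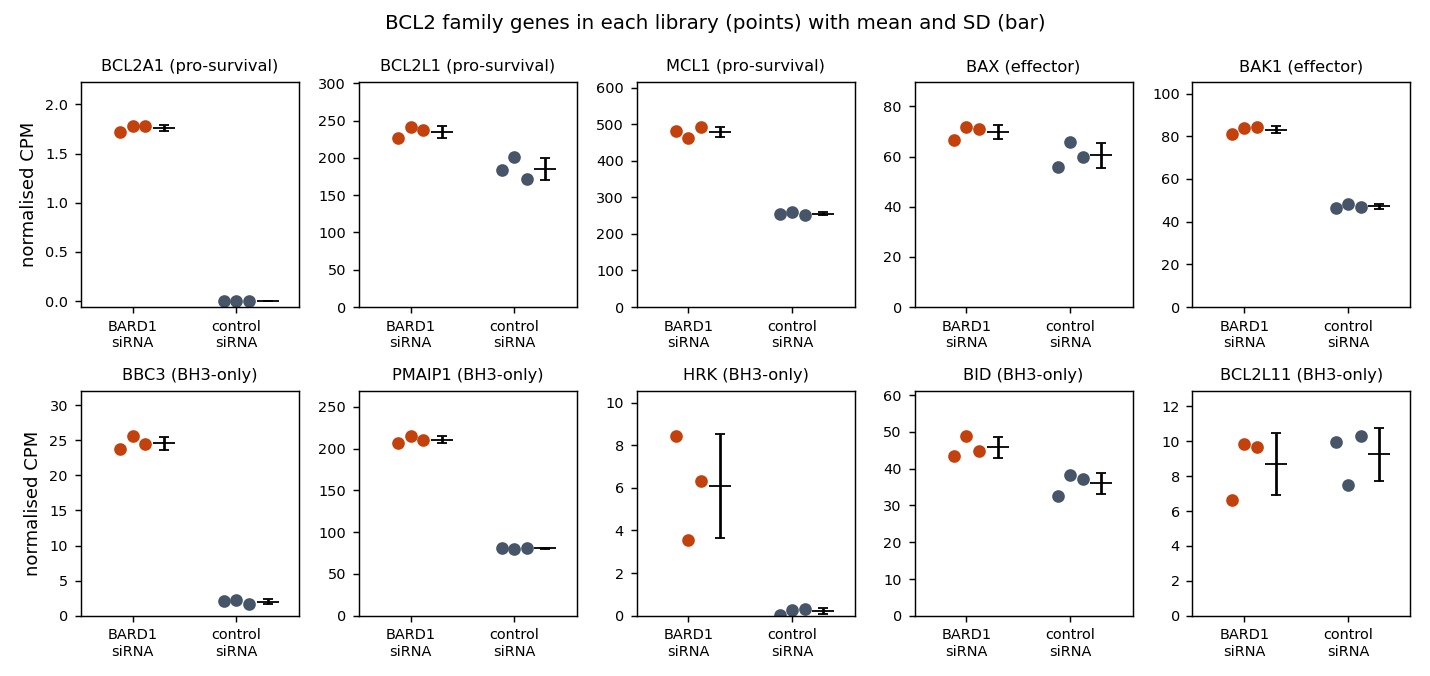
Normalised CPM of the 10 BCL2 family genes, 1 panel per gene with its own linear axis, BARD1 siRNA on the left and control siRNA on the right. Points are libraries, and the bar beside them is the mean with its SD (n = 3). BARD1 siRNA points lie above all control siRNA points in every panel except that of BCL2L11.

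Pro-survival members rose by very different amounts. MCL1 (ENSG00000143384, GRCh38 chromosome 1, 150574551 to 150579738, minus strand) had 481, 463 and 492 CPM in BARD1 siRNA libraries, against 255, 260 and 251 CPM in control siRNA libraries. No library of either group came near the other group, and the means were 479 ± 14.6 and 255 ± 4.46 CPM (SD, n = 3 each), a 1.87-fold increase (log2 fold change 0.91, SE 0.05, edgeR adjusted p = 2.57e-22). BCL2L1 (ENSG00000171552, chromosome 20, 31664452 to 31723989, minus strand) had 226, 241 and 238 CPM with BARD1 siRNA, against 184, 201 and 171 CPM with control siRNA. Its groups were apart but closer, with a 1.27-fold increase (log2 fold change 0.34, SE 0.05, edgeR adjusted p = 6.59e-07). An antisense gene, ABALON, overlaps BCL2L1 and held between 34 and 88 counts per library.

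BCL2A1 (ENSG00000140379, chromosome 15, 79960889 to 79971446, minus strand), an NF-κB target that encodes the MCL1-like protein BFL-1, was detected with BARD1 siRNA alone. Its counts were 28, 30 and 31 in BARD1 siRNA libraries and 0 in each control siRNA library. Set against a floor of 3 counts over the control siRNA group, it was at least 30.9-fold higher, a log2 bound of 4.95. That bound covers counting error of the control siRNA group only, and makes no allowance for error in the BARD1 siRNA counts. The edgeR fit, which does not use this floor, gave a log2 fold change of 7.93 (SE 1.03, adjusted p = 6.88e-09). BCL2A1 passed the filter only through the BARD1 siRNA group, so this p-value is no further support. The level reached was low, at 1.76 ± 0.0323 CPM (SD, n = 3). Its coefficient of variation among BARD1 siRNA libraries was 1.83%, where counting alone would give 18.4%, so this SD understates the uncertainty of the level.

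Both effectors rose, BAK1 more than BAX. BAK1 (ENSG00000030110, chromosome 6, 33572547 to 33580293, minus strand) had 81.1, 83.8 and 84.2 CPM with BARD1 siRNA, against 46.3, 48.3 and 46.7 CPM with control siRNA. The groups were far apart for their spread, at a log2 fold change of 0.82 (SE 0.07, edgeR adjusted p = 1.82e-14). Its processed pseudogene BAK1P1 held 21 counts or fewer in any library. BAX (ENSG00000087088, chromosome 19, 48954815 to 48961798, plus strand) had 66.5, 71.7 and 71.0 CPM with BARD1 siRNA, against 56.0, 65.9 and 60.0 CPM with control siRNA. The lowest BARD1 siRNA library and the highest control siRNA library nearly met in CPM, and the increase was 1.15-fold (log2 fold change 0.20, SE 0.07, edgeR adjusted p = 0.0192). In TPM these libraries crossed, at 89.2 TPM with BARD1 siRNA and 91.8 TPM with control siRNA. That call was lost with upper-quartile factors (adjusted p = 0.122) and with scaling by library size alone (0.107). Leaving out control siRNA replicate 1 (0.158) or BARD1 siRNA replicate 2 (0.0942) or 3 (0.073) lost it too, and over all alternatives its adjusted p ranged from 0.00253 to 0.158.

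BH3-only members ranged from a 12.4-fold increase of BBC3 and a larger one of HRK to the 1 member that did not pass. BBC3 (ENSG00000105327, chromosome 19, 47220822 to 47232766, minus strand), which encodes PUMA, had 23.7, 25.6 and 24.4 CPM in BARD1 siRNA libraries, against 2.05, 2.29 and 1.61 CPM in control siRNA libraries. It rose 12.4-fold (log2 fold change 3.63, SE 0.16, edgeR adjusted p = 2.86e-25), and 0.268% of tested genes had a higher log2 fold change. The level was even across BARD1 siRNA libraries, with a coefficient of variation of 3.89%. PMAIP1 (ENSG00000141682, chromosome 18, 59899948 to 59904306, plus strand), which encodes NOXA, had 207, 215 and 210 CPM with BARD1 siRNA, against 81.2, 80.1 and 81.3 CPM with control siRNA. This was the largest absolute gain in CPM of any BH3-only member here, and its level with control siRNA was already above those of the other 4, at a 2.61-fold increase (log2 fold change 1.38, SE 0.06, edgeR adjusted p = 2.07e-27).

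HRK (ENSG00000135116, chromosome 12, 116856144 to 116881441, minus strand), a BH3-only gene best known from neurons, rose to a low and uneven level. It had 137, 60 and 110 counts in BARD1 siRNA libraries, against 1, 5 and 6 counts in control siRNA libraries. BARD1 siRNA replicate 2 was the lowest of its group and still far above the control siRNA libraries. In CPM the means were 6.10 ± 2.45 and 0.228 ± 0.149 (SD, n = 3 each), at a log2 fold change of 4.70 (SE 0.41, edgeR adjusted p = 2.42e-13). HRK too passed the filter only through the BARD1 siRNA group, so its p-value is no further support. Among BARD1 siRNA libraries the coefficient of variation was 40.1%, where counting alone would give 9.89%. For BBC3 in the same libraries it was 3.89%, below the 4.91% expected from counting.

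BID (ENSG00000015475, chromosome 22, 17734138 to 17774770, minus strand), which caspase-8 cleaves to link death receptors to mitochondria, had 43.6, 48.9 and 44.9 CPM with BARD1 siRNA, against 32.7, 38.2 and 37.2 CPM with control siRNA. It rose 1.27-fold (log2 fold change 0.35, SE 0.09, edgeR adjusted p = 0.000843). BCL2L11 (ENSG00000153094, chromosome 2, 111119378 to 111168447, plus strand), which encodes BIM, had 6.65, 9.83 and 9.65 CPM with BARD1 siRNA, against 9.96, 7.52 and 10.3 CPM with control siRNA. Its groups overlapped, and the log2 fold change of −0.09 (SE 0.17, edgeR adjusted p = 0.718) had a 95% interval from −0.42 to 0.24. A long noncoding gene on the other strand, MIR4435-2HG, overlaps BCL2L11 and held more counts than it in every library, 258, 269 and 297 with BARD1 siRNA and 266, 216 and 268 with control siRNA. This overlap is of whole gene spans. Whether the exons of these genes overlap was not checked, and the strand setting of the counting is not stated. How far reads of this pair mix was not tested.

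**Figure D2:**
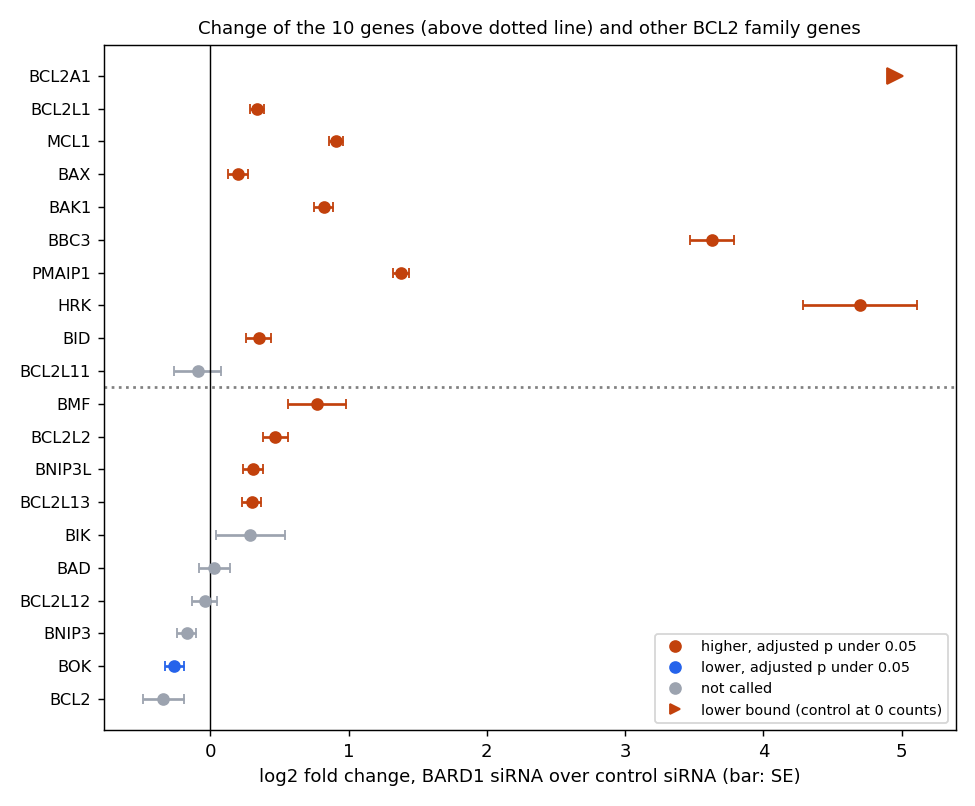
Log2 fold change of BARD1 siRNA over control siRNA, with SE, for the 10 genes above the dotted line and the 10 other tested BCL2 family genes below it. The triangle of BCL2A1 marks the lower bound of 4.95, HRK and BBC3 follow at 4.70 and 3.63, and the genes below the line lie between −0.34 and 0.77.

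Levels of different members can be compared only per length, so counts were divided by the deposited gene length and scaled to the same sum in every library (TPM). With BARD1 siRNA the order was MCL1 (379 ± 10.9 TPM, SD, n = 3), PMAIP1 (327 ± 6.47 TPM), BCL2L1 (246 ± 8.06 TPM), BAK1 (130 ± 2.33 TPM), BAX (93.3 ± 3.64 TPM), BID (35.7 ± 2.14 TPM) and BBC3 (26.8 ± 1.03 TPM). BCL2A1, BCL2L11 and HRK stood last at 5.60, 4.53 and 3.08 TPM, and the libraries of BCL2L11 and HRK overlapped. With control siRNA the order was MCL1 (210 ± 3.56 TPM), BCL2L1 (201 ± 15.9 TPM), PMAIP1 (130 ± 1.08 TPM), BAX (84.4 ± 7.08 TPM), BAK1 (76.7 ± 1.82 TPM), BID (29.2 ± 2.42 TPM), BCL2L11 (5.01 ± 0.824 TPM) and BBC3 (2.24 ± 0.389 TPM). MCL1 and BCL2L1 overlapped there, as did BAX and BAK1. PMAIP1 thus ranked above BCL2L1 with BARD1 siRNA and below it with control siRNA. With the length of the longest coding transcript in place of the gene length, BCL2L1 came before MCL1 with control siRNA (177 and 162 TPM), BAX came before PMAIP1 with control siRNA (111 and 104 TPM), and BAX came before BAK1 in both groups (124 and 90.7 TPM with BARD1 siRNA, 111 and 53.2 TPM with control siRNA).

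**Figure D3:**
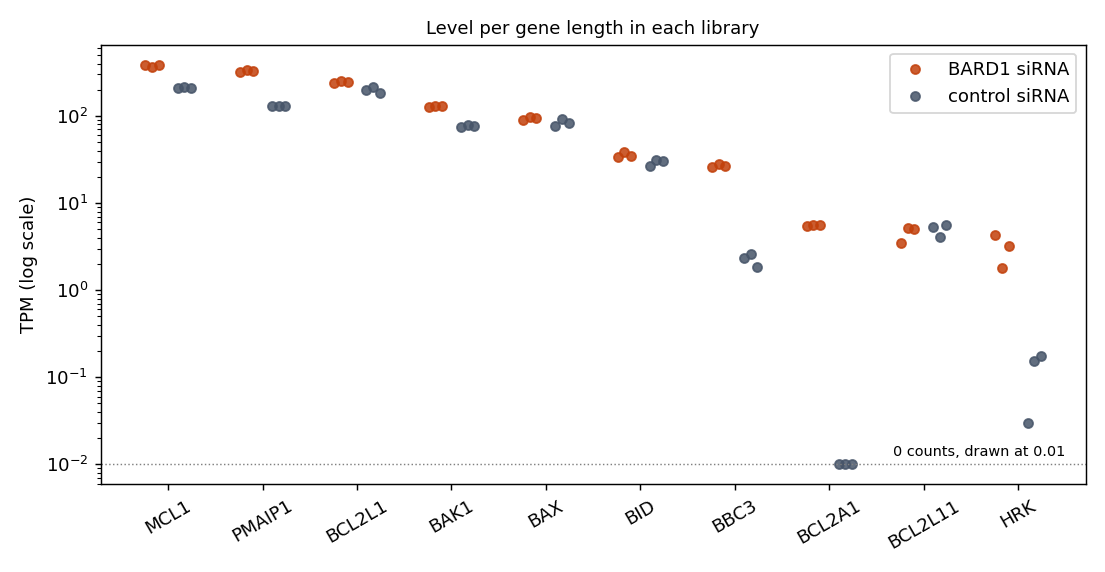
TPM of each member in each library on a log scale, members ordered by their mean with BARD1 siRNA, BARD1 siRNA points left of control siRNA points. The 3 control siRNA libraries of BCL2A1 have 0 counts and are drawn at 0.01 TPM. MCL1, PMAIP1 and BCL2L1 are the 3 highest in both groups by the deposited gene length.

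Summed by role, pro-survival members reached 624, 625 and 643 TPM with BARD1 siRNA, against 408, 432 and 394 TPM with control siRNA. BH3-only members reached 389, 407 and 394 TPM with BARD1 siRNA, against 165, 167 and 169 TPM with control siRNA. The 2 effectors summed to 217, 227 and 226 TPM with BARD1 siRNA, against 153, 170 and 160 TPM with control siRNA. No sum overlapped between the groups, and the BH3-only sum had the largest ratio of means, 2.38 against 1.53 for pro-survival and 1.39 for effector members. Most of the BH3-only sum was PMAIP1, 82.3 ± 0.263% with BARD1 siRNA and 78.1 ± 1.02% with control siRNA (SD, n = 3 each). The share of BBC3 was 6.75 ± 0.105% with BARD1 siRNA and 1.35 ± 0.243% with control siRNA. These RNA sums say nothing of protein levels.

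Ratios within a library do not depend on scaling, but their level depends on the gene lengths used. PMAIP1 over MCL1, the pair of NOXA and its main partner, was 0.842, 0.908 and 0.835 in BARD1 siRNA libraries, against 0.622, 0.603 and 0.633 in control siRNA libraries. BAK1 over BAX was 1.43, 1.37 and 1.39 with BARD1 siRNA, against 0.968, 0.858 and 0.910 with control siRNA. MCL1 over BCL2L1 was 1.61, 1.46 and 1.57 with BARD1 siRNA, against 1.05, 0.983 and 1.11 with control siRNA. BARD1 siRNA libraries lay above control siRNA libraries without overlap for these 3 ratios, but an exact two-sided permutation test of 3 against 3 libraries gave p = 0.1 for each, the smallest it can give, and 0.1 after adjustment over the 3. None of these ratios was planned. They follow from the changes of the same genes in the same libraries, and are no separate support. Other ratios were not tested. Summed BH3-only over summed pro-survival members was 0.624, 0.650 and 0.613 with BARD1 siRNA, against 0.403, 0.386 and 0.429 with control siRNA. Effector over pro-survival members went the other way, at 0.347, 0.364 and 0.352 with BARD1 siRNA, against 0.374, 0.394 and 0.406 with control siRNA, again without overlap. With the longest coding transcript lengths each of these 5 ratios kept its side, but BAK1 over BAX was below 1 in both groups, at a mean of 0.732 with BARD1 siRNA and 0.479 with control siRNA, and MCL1 over BCL2L1 averaged 1.35 with BARD1 siRNA and 0.919 with control siRNA.

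Other genes of the family were counted beside the members. Of 13 further BCL2 family genes 10 were tested, of which 4 rose and 1 fell, where 22.0% of all tested genes were called higher and 20.3% lower. The median of their log2 fold changes was 0.16, and −0.007 over all tested genes. BMF, a BH3-only gene, rose by 0.77, the pro-survival BCL2L2 (BCL-W) by 0.47, and the mitophagy receptors BNIP3L and BCL2L13 by 0.31 and 0.30 on the log2 scale. BMF had 7.94, 8.23 and 5.57 CPM with BARD1 siRNA, against 4.55, 3.76 and 4.44 CPM with control siRNA. BOK, an effector-like member, was the 1 that fell, by 0.26 on the log2 scale (edgeR adjusted p = 0.00256). BCL2 itself had 9.11, 7.46 and 9.71 CPM with BARD1 siRNA, against 11.9, 10.5 and 10.9 CPM with control siRNA, and did not pass (log2 fold change −0.34, edgeR adjusted p = 0.0717). BCL2 and BNIP3 were called lower when scaled by upper quartiles or by library size alone. BAD, BIK, BNIP3 and BCL2L12 had log2 fold changes from −0.17 to 0.29 and did not pass, while BCL2L10, BCL2L14 and BCL2L15 were too low to test.

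Partners of the family at the outer membrane and the steps after it went both ways. Of 15 tested genes 2 rose, 6 fell and 7 did not pass, where 22.0% of all tested genes were called higher and 20.3% lower, and the median of their log2 fold changes was −0.14. XIAP, an inhibitor of caspases, rose by 0.35 on the log2 scale, and the channel gene VDAC2 by 0.16 (edgeR adjusted p = 0.0138), a call lost when scaled by upper quartiles or by library size alone, or without replicate 1 of either group. VDAC3, another channel of the outer membrane, fell by 0.45, MTCH2, the receptor of truncated BID, by 0.36, and OPA1, which shapes the inner membrane, by 0.33. Cytochrome c (CYCS), APAF1 and CASP9, named here after their values were seen, had log2 fold changes from −0.14 to −0.04 and did not pass.

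Genes for the turnover or tethering of MCL1 and BH3-only proteins were also mixed, with 3 higher and 4 lower of 14 tested and a median of −0.03, not far from the 22.0% higher and 20.3% lower of all tested genes. FBXW7, a ubiquitin ligase subunit that marks MCL1 for degradation, rose by 0.74 to 32.6 ± 2.01 CPM with BARD1 siRNA, against 19.5 ± 1.20 CPM with control siRNA (SD, n = 3 each). BTRC, another ligase subunit, rose by 0.39. CDC20, an activator of the anaphase-promoting complex, fell by 0.63, and DYNLL1, the dynein light chain that tethers BIM, fell by 0.46 on the log2 scale. HUWE1, a further ligase of MCL1, and USP9X, which removes ubiquitin from it, did not pass at −0.08 and −0.01, and were named after their values were seen. HUWE1 was called lower when scaled by upper quartiles or by library size alone.

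Transcription factors known to act on genes of the family were mostly higher. Among 20 tested, 17 rose, 1 fell and 2 did not pass, where 22.0% of all tested genes were called higher and 20.3% lower. The median of their log2 fold changes was 0.86, and −0.007 over all tested genes. This list too was chosen with earlier results of these data known, so these shares describe it and do not test it. The stress factors ATF3 and DDIT3 (CHOP) rose by 5.35 and 4.02, CEBPB by 2.21 and the NF-κB gene NFKB2 by 2.04 on the log2 scale. E2F1 was the 1 that fell, by 0.22. DDIT3 overlaps MARS and MBD6 on the opposite strand by whole gene span, and both have higher mean counts. Their log2 fold changes were 0.56 and 0.86, and how far their reads enter the values of DDIT3 was not tested.

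**Figure D4:**
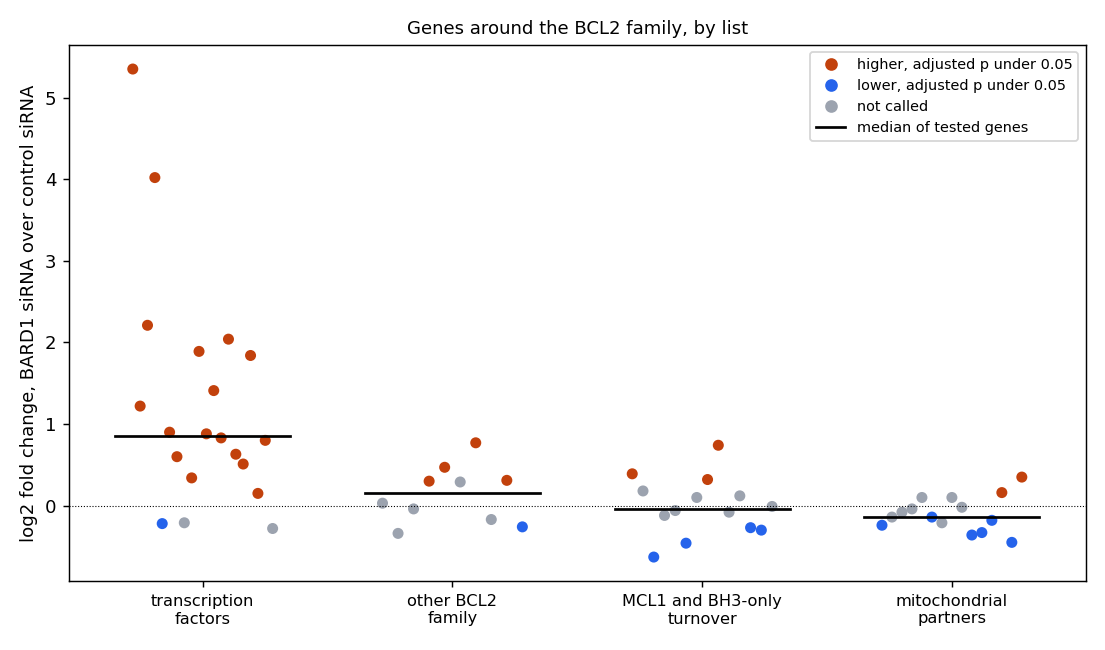
Log2 fold change of BARD1 siRNA over control siRNA for each tested gene of 4 lists around the BCL2 family, coloured by the edgeR call, with the median of each list as a black line. Medians are 0.86 for transcription factors, 0.16 for other BCL2 family genes, −0.03 for turnover and −0.14 for mitochondrial partners.

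The genes nearest in pattern to the 3 most changed members were found by Euclidean distance over the 6 libraries, on log2(CPM + 0.1) centred on each gene, among 10881 well-expressed protein-coding genes. For BBC3 they were DUSP5 and C1QTNF1, at distances of 0.445 and 0.462. For HRK they were IL6 and CXCL3, farther away at 1.22 and 1.33, and for BCL2A1 they were DDIT3 and HMOX1, at 0.374 and 0.507. The distances of BCL2A1, and which genes come nearest to it, depend on the added 0.1 CPM, since its control siRNA libraries are at 0. DDIT3 and HMOX1 rose by 4.02 and 4.60 on the log2 scale, below the bound of 4.95 for BCL2A1. No likeness to BCL2A1 is therefore read from them. With 2 groups of 3 libraries, such likeness reflects mainly the size of the difference between the groups.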

How the data were processed

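RNA was sequenced from 6 cultures of SKOV3ip1 cells, 3 per group. The authors deposited raw read counts, whole and not normalised, beside each gene's length. HISAT2, CASAVA and GRCh38 (hg38) are named per the submitters' processing notes, while versions, counting program and strand setting are not stated in the sources. For the 10 members the deposited gene length equals the union of exons in GENCODE release 29, and coordinates are those of the deposited table.

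Counts were tested over the whole table with edgeR 4.0.16 in R 4.3.3 (robust glmQLFit and glmQLFTest, TMM factors, group as the only term). The filterByExpr function with a minimum count of 10 and a minimum total of 15 left 15271 of 29419 genes with any count. P-values were adjusted by Benjamini-Hochberg over these 15271 genes, with a threshold of 0.05. Fold changes set BARD1 siRNA over control siRNA, and their SE comes from the size of the log2 fold change and the square root of F. CPM were computed with TMM factors and TPM without them. Precision depends on totals of 16621108 to 17743404 counts per library and on the spread between replicates. The common biological coefficient of variation in the edgeR fit was 7.19%. Floors and intervals cover counting error only where stated.

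The members and gene lists were chosen with earlier results of these data known. Named are all 10 members, BARD1 and, per list, up to 4 called genes with the largest absolute log2 fold change, plus genes against their list's direction. MARCH5, in the turnover list, matched no gene name. Promoter sequences are from RefSeq, GRCh38.p14. Alternatives tried were RLE factors, upper-quartile factors, library size alone, DESeq2 1.42.0, no filter, a replicate block and leaving out each library in turn. The edgeR test was checked on simulated counts. No protein sequences were used here. Some genes and 1 gene list are not reported here and are left out of the list counts.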

Additional observations from a re-analysis of the deposited data

How the results depend on the processing

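The 10 members kept 8 or 9 higher and 0 lower under all 12 alternatives, and BAX was the member that lost its call. Leaving out 1 library gave 8 to 9 members higher, 3004 to 3362 of all genes higher and 2651 to 3075 lower. Upper-quartile factors and library size alone moved the median of all genes by −0.07 and −0.06 (log2), while the share of higher genes among all called genes was 41.5% and 42.2%, against 51.9% with TMM. With both settings 8 members were higher. Lower genes of the other BCL2 family numbered 3 with each of these settings, against 1, and 1 to 2 when 1 library was left out. Higher mitochondrial partners numbered 1 with each, against 2, and 1 to 2 when 1 library was left out. Lower transcription factors numbered 2 with upper-quartile factors, against 1, and 1 to 2 when 1 library was left out. VDAC2 and STAT3 lost their calls with both settings. The log2 fold change of BCL2L11 was 0.07 without BARD1 siRNA replicate 1 (edgeR adjusted p = 0.809, range over alternatives 0.358 to 0.983), against −0.09, and leaving out 1 library moved it between −0.22 and 0.07. In these results the cause was not tested. With the longest coding transcript length, chosen after the data were seen, 5 of the 10 members kept their place by TPM in both groups. The planned RefSeq transcript lengths were not run.

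Same-numbered libraries did not deviate together, with correlations of −0.00906, −0.0149 and −0.0218 between deviations from the group means. The replicate block gave 9 members higher and 0 lower, and 3390 genes higher and 3122 lower. No 2 replicates were alike within sampling noise. BCL2A1, HRK and BBC3 had 0, 12 and 104 counts over the control siRNA libraries, so depth limits the precision of their fold changes more than that of the other members.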

Other observations

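Transcripts that lie on or resemble members were measured beside them. ABALON, an antisense gene to BCL2L1, had 51, 34 and 88 counts in BARD1 siRNA libraries, against 59, 52 and 34 in control siRNA libraries, and did not pass (log2 fold change 0.30, edgeR adjusted p = 0.445). MIR4435-2HG, on the strand opposite BCL2L11, did not pass either (log2 fold change 0.19, edgeR adjusted p = 0.219). The pseudogene BAK1P1 had 21, 18 and 10 counts with BARD1 siRNA, against 6, 8 and 9 with control siRNA, too few to test, and how far these are reads of BAK1 was not tested. ADAMTSL4-AS1, which overlaps MCL1 on the same strand, had 6, 12 and 24 counts with BARD1 siRNA, against 9, 13 and 12 with control siRNA (log2 fold change 0.35, edgeR adjusted p = 0.651).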
